A study of Arabidopsis thaliana with 12 samples.

Results

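The genes described here are those whose response to the pH of the medium changed sides between 1 h and 8 h in roots of Arabidopsis thaliana. Array signals at pH 6 and at pH 4.5 were compared at each time as the log2 ratio of the group means, each mean raised by 4. A probe set was taken when both log2 ratios were at least 0.5 in size and had opposite signs, when its largest group mean was at least 20, and when the 3 arrays of one pH did not overlap those of the other at either time. Genes with symbols beginning CML, EXL, EXP, XTH, UGT or CYP were left out, which removed 3 probe sets. This left 123 of 22746 non-control probe sets. Of these, 76 were higher at pH 6 after 1 h and higher at pH 4.5 after 8 h, and 47 ran the other way. Both pH differences therefore chose the members and are given below as descriptions. Where members fall in a gene list that is counted by limma's calls, this is said beside the count and nothing is read from their calls.

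The samples were roots of wild-type Col-0 plants at a labelled stage of 3.90 weeks, grown at 23 °C in non-sterile hydroponics, with potassium phosphate of pH 5.6 among the nutrients. The 4 groups were pH 4.5 for 1 h, pH 6 for 1 h, pH 4.5 for 8 h and pH 6 for 8 h, with 3 Affymetrix ATH1 arrays each, 12 in all, and 1 sample per array. There is no untreated group, and a difference between the pH values leaves unknown which pH moved a gene from its earlier level. The labels name neither the hour of sampling nor whether replicates came from separate cultures, so the p-values rest on a spread between arrays that may be only technical. Whole roots were sampled, and fewer cells of a type and less RNA per cell cannot be told apart.

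Root cells pump protons into the wall space, and the pH there bears on wall loosening, on the charge of pectin and on nutrient uptake by proton-coupled transporters. Receptor-like kinases at the plasma membrane sense wall fragments, peptides and microbial molecules, and cytoplasmic kinases such as BIK1 pass the signal on to calcium and oxidative responses and to WRKY transcription factors. Binding of some peptides to such receptors is known to depend on the pH outside the cell.

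Array medians lay between 38.2 and 40.2, and each array had a mean of 100 after the highest and lowest 2% of signals were left out. The medians did not overlap between pH 4.5 (38.2 to 38.3) and pH 6 (39.9 to 40.2) at 1 h, and they overlapped at 8 h (38.5 to 40.04 and 38.4 to 39.7). The 3′ to 5′ signal ratio of the actin control, a measure of RNA integrity, was also separate at 1 h, at 18.2 to 21.1 in the pH 4.5 arrays and 9.998 to 17.04 in the pH 6 arrays. The same ratio overlapped between the pH values at 1 h for GAPDH (1.25 to 1.47 and 0.928 to 1.26) and for ubiquitin (2.02 to 2.47 and 2.19 to 2.36). The part of array medians and of these ratios in the 1 h differences was not tested. Dividing each array by its median changed the balance of the members, from 76 and 47 to 52 probe sets higher at pH 6 first and 65 higher at pH 4.5 first. Over all 22746 probe sets, arrays at the 2 pH values did not overlap in 23.2% at 1 h, in 32.7% at 8 h and in 10.5% at both times, and 3.18% were separate at both times with opposite directions.

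**Figure D1:**
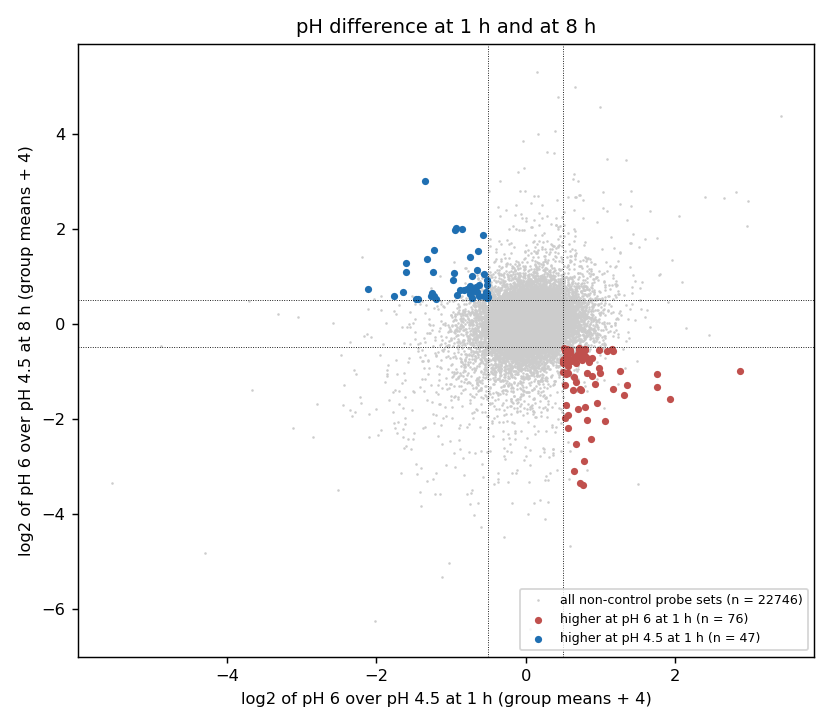
Each point is a probe set, with the log2 ratio of pH 6 over pH 4.5 (group means raised by 4) at 1 h on the horizontal axis and at 8 h on the vertical axis. Dotted lines mark 0.5 and -0.5; the 76 red points lie to the lower right and the 47 blue points to the upper left.

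Among the 76 probe sets that were higher at pH 6 first, 35 name a single gene and 41 name none in the probe table. Their log2 ratios ranged from 0.50 to 2.87 at 1 h (median 0.71) and from -3.40 to -0.50 at 8 h (median -0.91). The later difference was the larger of the pair in 52 of them. Among the 47 that were higher at pH 4.5 first, 19 name a single gene, 1 names several and 27 name none. These ranged from -2.11 to -0.51 at 1 h (median -0.78) and from 0.51 to 3.01 at 8 h (median 0.73), and the later difference was the larger in 26. Both differences reached a log2 size of 1 in 7 probe sets of the first kind and 6 of the second. Roles are given below as background, since the gene tables used here hold names without descriptions, and the groups were formed after the values were seen.

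**Figure D2:**
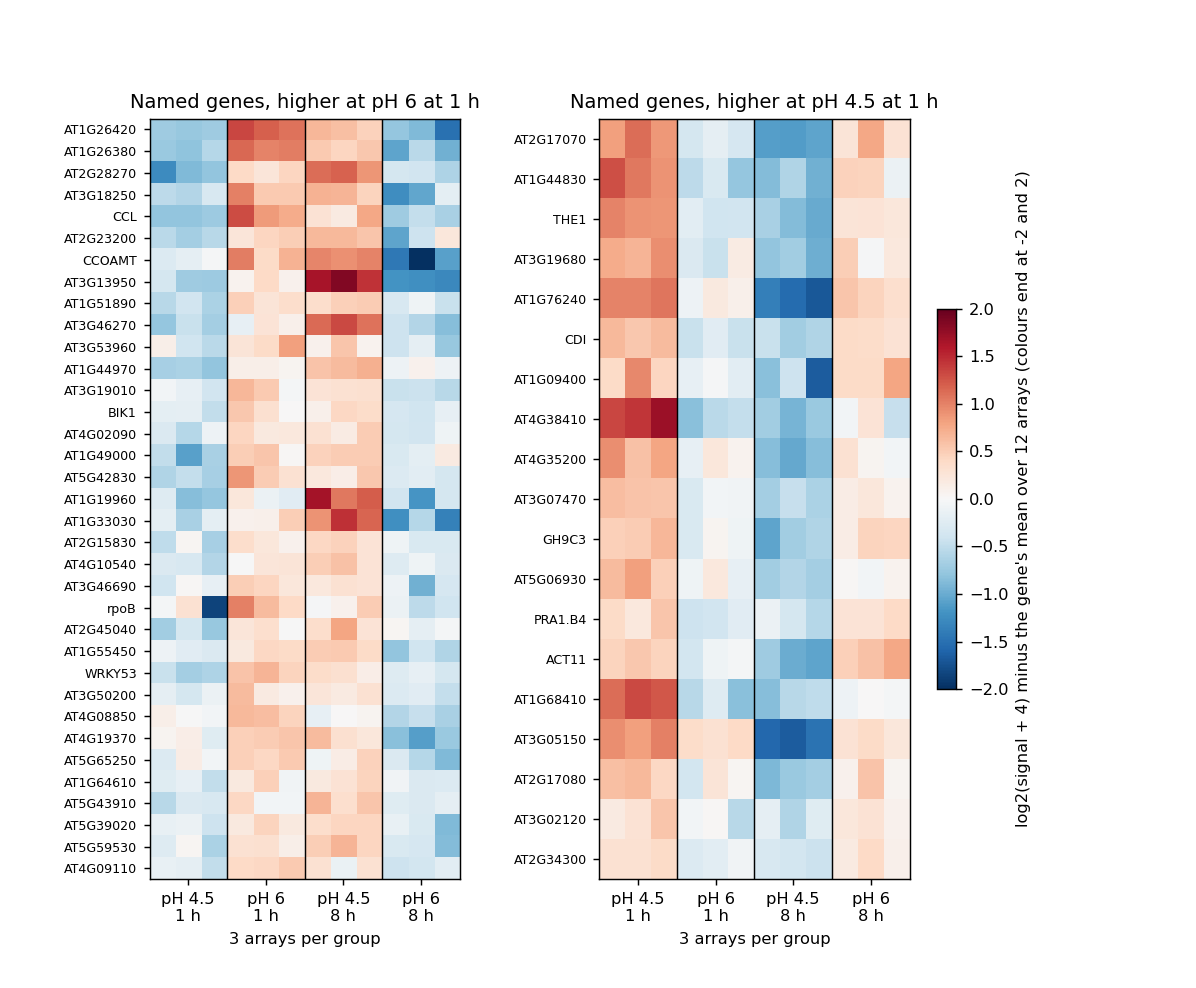
Rows are the 54 members that name a single gene, columns the 12 arrays in 4 groups of 3, and colour is log2(signal + 4) minus the gene's mean over the arrays. In the left panel (35 genes) the high groups are pH 6 at 1 h and pH 4.5 at 8 h, and in the right panel (19 genes) pH 4.5 at 1 h and pH 6 at 8 h.

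Several genes of the set that was higher at pH 6 first belong to receptor signalling at the cell surface. BIK1 (AT2G39660), a cytoplasmic kinase that acts below immune receptors, had signals of 179, 182 and 145 at pH 4.5 and 301, 258 and 207 at pH 6 at 1 h. After 8 h its signals were 222, 277 and 268 at pH 4.5 and 163, 156 and 184 at pH 6. The 2 high groups, pH 6 at 1 h and pH 4.5 at 8 h, had like means of 255 ± 47.2 (SD, n = 3, as for every mean below) and 256 ± 29.6. WRKY53 (AT4G23810), a transcription factor of defence and senescence, had 75.5, 63.7 and 67.1 at pH 4.5 and 158, 171 and 145 at pH 6 at 1 h. At 8 h they were 136, 132 and 116 at pH 4.5 and 86.6, 93.7 and 81.0 at pH 6. The pH 6 arrays were thus all higher at first and all lower later, with log2 ratios of 1.15 and -0.54.

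AT4G08850 encodes a leucine-rich-repeat receptor kinase of peptide perception. Its signals were 402, 369.6 and 358 at pH 4.5 and 583, 571 and 505 at pH 6 at 1 h. By 8 h the signals were 332, 374 and 387 at pH 4.5 and 247, 269.8 and 236 at pH 6. Here the pH 4.5 means stayed near each other (376 ± 22.7 and 364 ± 28.4), and it was the pH 6 mean that moved from 553 ± 41.8 to 251 ± 17.3. AT1G51890, another leucine-rich-repeat receptor kinase, had 134, 152 and 127 at pH 4.5 and 278, 239.6 and 256 at pH 6 at 1 h. Its later signals were 255, 280.2 and 286 at pH 4.5 and 159, 187 and 145 at pH 6. Its values crossed almost evenly, with a log2 ratio of 0.89 at 1 h and -0.73 at 8 h.

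AT2G23200 and AT5G39020 encode receptor kinases with malectin-like outer domains, the family that also holds FERONIA and THESEUS1. AT2G23200 had signals of 17.7, 15.7 and 17.5 at pH 4.5 and 33.6, 38.6 and 40.6 at pH 6 at 1 h. At 8 h it stood at 45.4, 45.7 and 42.5 at pH 4.5 and 11.3, 19.8 and 33.0 at pH 6. The later pH 6 arrays spread widely, but all lay under the pH 4.5 arrays. AT5G39020 had means of 41.3 ± 4.75 at pH 4.5 and 60.3 ± 6.42 at pH 6 at 1 h, and of 65.9 ± 2.29 and 35.6 ± 9.85 at 8 h. AT4G09110, a RING-type ubiquitin ligase gene of the ATL family, was a weaker example with means of 14.5 and 26.3 at 1 h and 21.1 and 13.7 at 8 h.

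A second group makes or modifies small molecules. AT1G26380 and AT1G26420, berberine-bridge-enzyme-like oxidoreductases with 3 genes between them in the RefSeq order, ranked highest among the named genes of this direction by the smaller of the 2 differences (1.60 in AT1G26420 and 1.33 in AT1G26380). AT1G26380 had signals of 30.1, 28.5 and 34.3 at pH 4.5 and 122, 109 and 111 at pH 6 at 1 h. The 8 h arrays read 77.8, 72.5 and 78.3 at pH 4.5 and 23.4, 35.1 and 25.3 at pH 6. In AT1G26420 they were 7.41, 7.03 and 7.38 at pH 4.5 and 43.2, 38.7 and 35.8 at pH 6 at 1 h. At 8 h they were 25.7, 24.3 and 21.8 at pH 4.5 and 6.91, 6.19 and 2.62 at pH 6. Both were high at pH 6 early and at pH 4.5 late, and near their lowest levels in the other 2 groups. The lower means of AT1G26420, 7.27 and 5.24, lay under 10.4, the signal to which the filter on low probe sets corresponds. Probes of related neighbouring genes can share transcripts, so these 2 may not be separate measurements.

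CCOAMT (AT1G67980), a caffeoyl-CoA O-methyltransferase of the phenylpropanoid pathway, had 49.3, 53.3 and 59.8 at pH 4.5 and 128, 80.6 and 100.4 at pH 6 at 1 h. Later the gap was wider and reversed, at 124, 117 and 125 at pH 4.5 and 19.9, 12.1 and 26.3 at pH 6, a 6.28-fold ratio of the means. AT1G33030, an O-methyltransferase family gene, moved likewise from means of 7.63 and 13.2 at pH 4.5 and pH 6 to 29.5 and 3.28. AT1G44970, a class III peroxidase, had 51.5, 52.7 and 46.7 at pH 4.5 and 91.8, 91.2 and 86.8 at pH 6 at 1 h. By 8 h the signals were 127, 132 and 139.6 at pH 4.5 and 78.2, 88.9 and 77.8 at pH 6. Its pH 6 means at the 2 times were 89.9 ± 2.74 and 81.7 ± 6.30, while the pH 4.5 mean went from 50.3 ± 3.20 to 133 ± 6.22. Further genes with enzyme products were AT5G42830, an acyltransferase (1.16 at 1 h and -0.58 at 8 h as log2 ratios), AT1G55450, a methyltransferase (0.54 and -1.06), and AT3G46690, a glycosyltransferase (0.56 and -0.69). The 2-oxoglutarate-dependent oxygenases AT3G19010 (0.61 and -0.78) and AT5G59530 (0.50 and -1.02) completed this group.

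Proteases of the wall space were also present. AT4G10540, a subtilase, had log2 ratios of 0.56 at 1 h and -0.66 at 8 h, and AT2G45040, a matrix metalloprotease, of 0.79 and -0.54. AT3G53960, a transporter of the major facilitator superfamily, had 0.75 and -0.69.

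CCL (AT3G26740), a light- and clock-linked gene, had signals of 13.3, 13.4 and 14.0 at pH 4.5 and 70.3, 50.3 and 45.9 at pH 6 at 1 h. Its later signals were 32.6, 29.9 and 47.4 at pH 4.5 and 14.3, 17.5 and 15.1 at pH 6. At pH 4.5 its mean was 2.70-fold higher at 8 h than at 1 h, and at pH 6 it was 3.56-fold lower. AT2G28270, which encodes a cysteine- and histidine-rich C1 domain protein, had 28.0, 37.5 and 40.3 at pH 4.5 and 97.1, 86.8 and 98.9 at pH 6 at 1 h. The 8 h arrays read 162, 169 and 138 at pH 4.5 and 56.0, 54.9 and 46.1 at pH 6. All 4 groups were apart from each other in this gene. AT3G13950 had 32.0, 24.2 and 23.8 at pH 4.5 and 44.2, 56.5 and 44.95 at pH 6 at 1 h. At 8 h they were 140.4, 161 and 120.4 at pH 4.5 and 16.1, 15.6 and 14.7 at pH 6. AT3G46270 had 111, 139 and 118 at pH 4.5 and 171, 231 and 206 at pH 6 at 1 h. By 8 h the signals were 422, 485 and 411 at pH 4.5 and 142, 126 and 104 at pH 6. In both, the pH 4.5 arrays at 8 h were far above every other array.

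AT3G18250 had means of 95.1 ± 9.95 at pH 4.5 and 220.02 ± 45.7 at pH 6 at 1 h, then 206 ± 19.7 and 77.6 ± 33.5 at 8 h. AT1G19960 had log2 ratios of 0.57 at 1 h and -1.93 at 8 h, with a mean of 279 ± 65.8 at pH 4.5 and 8 h that lay above the other 3 groups. The plastid gene rpoB, for a subunit of the plastid RNA polymerase, met the rule at low signals. Its pH 4.5 arrays at 1 h read 13.4, 18.2 and 0.996, of which the third was far below the rest.

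The set that was higher at pH 4.5 first holds genes of the wall and of cell growth. THE1 (AT5G54380) encodes THESEUS1, a receptor kinase that monitors the state of the cell wall in growing cells. It had signals of 283, 267 and 263 at pH 4.5 and 122, 107 and 108 at pH 6 at 1 h. After 8 h they were 88.6, 75.2 and 68.0 at pH 4.5 and 169, 171 and 166 at pH 6. The arrays of the 4 groups did not overlap at all: the order from high to low was pH 4.5 at 1 h, pH 6 at 8 h, pH 6 at 1 h and pH 4.5 at 8 h. The same order of the group means held in 35 of the 47 probe sets. Since the rule sets which pH is the higher at each time, only the order across the times was free.

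GH9C3 (AT4G11050), a glycosyl hydrolase of the family that cuts beta-glucans of the wall, had 69.2, 70.6 and 79.3 at pH 4.5 and 38.6, 50.7 and 45.3 at pH 6 at 1 h. Its later signals were 21.4, 28.5 and 30.5 at pH 4.5 and 54.5, 67.9 and 67.0 at pH 6. ACT11 (AT3G12110), a subunit of the actin cytoskeleton, had 156, 167 and 157 at pH 4.5 and 87.2, 107 and 110.5 at pH 6 at 1 h. The 8 h arrays read 67.5, 55.1 and 52.6 at pH 4.5 and 159.9, 172 and 196 at pH 6. At 8 h its pH 6 mean was 3.01-fold that at pH 4.5, and at 1 h its pH 4.5 mean was 1.57-fold that at pH 6. AT2G34300, a methyltransferase family gene, had log2 ratios of -0.51 and 0.60, and AT3G02120, of a hydroxyproline-rich glycoprotein family, -0.52 and 0.54.

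Of the 19 named genes in this direction, 4 encode proteins with the plant domain of unknown function DUF241: AT2G17070, AT2G17080, AT1G76240 and AT4G35200. AT1G76240 had 357, 359.6 and 378 at pH 4.5 and 166, 205 and 193 at pH 6 at 1 h. At 8 h they were 67.0, 59.0 and 52.4 at pH 4.5 and 264, 244 and 226 at pH 6. AT2G17070 had 79.5, 99.2 and 82.4 at pH 4.5 and 33.4, 37.8 and 33.7 at pH 6 at 1 h. By 8 h the signals were 18.2, 17.8 and 19.0 at pH 4.5 and 52.7, 77.4 and 54.2 at pH 6. In its direct neighbour AT2G17080 the signals were 67.8, 69.9 and 59.3 at pH 4.5 and 32.5, 52.8 and 44.7 at pH 6 at 1 h. Its later signals were 21.4, 24.2 and 25.4 at pH 4.5 and 46.2, 66.6 and 45.3 at pH 6. AT4G35200 had means of 46.3 ± 6.03 at pH 4.5 and 26.6 ± 4.02 at pH 6 at 1 h, and of 11.7 ± 1.05 and 27.7 ± 4.11 at 8 h. In all 4 the lowest group was pH 4.5 at 8 h, as in 42 of the 47 probe sets of this direction. The neighbours AT2G17070 and AT2G17080 may share transcripts on their probes, so they need not be separate measurements.

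Genes linked to stress and signalling made up a further group. AT4G38410, a dehydrin, had 426, 455 and 558 at pH 4.5 and 91.5, 113 and 119 at pH 6 at 1 h. The 8 h arrays read 101, 86.2 and 98.5 at pH 4.5 and 160.4, 203 and 120.1 at pH 6. AT1G68410, a protein phosphatase of the PP2C class, had 446, 515 and 486 at pH 4.5 and 137, 169 and 112 at pH 6 at 1 h. At 8 h they were 111, 138 and 142 at pH 4.5 and 189, 204 and 199 at pH 6. Both had a large early difference, with ratios of 4.44 and 3.46 for pH 4.5 over pH 6, and a smaller late one of 1.69 and 1.51 for pH 6 over pH 4.5. AT1G44830, a DREB-type transcription factor gene, had 81.2, 67.9 and 61.1 at pH 4.5 and 20.3, 24.1 and 16.4 at pH 6 at 1 h. By 8 h the signals were 15.0, 18.9 and 13.9 at pH 4.5 and 43.9, 43.3 and 28.1 at pH 6. AT1G09400, related to the oxophytodienoate reductases, had log2 ratios of -0.74 and 1.41, with a mean of 6.21 at pH 4.5 and 8 h that lay under the low-signal level.

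Other members in this direction have transport or unknown roles. AT3G05150, a sugar transporter family gene, had 101, 92.9 and 107 at pH 4.5 and 66.9, 63.8 and 68.6 at pH 6 at 1 h. Its later signals were 14.6, 13.4 and 15.8 at pH 4.5 and 63.4, 68.1 and 60.4 at pH 6. Its pH 6 means at the 2 times were nearly equal (66.4 ± 2.45 and 64.0 ± 3.87), while at pH 4.5 the mean at 1 h was 6.87-fold that at 8 h. CDI (AT1G64980), a gene named for its induction by cadmium, had means of 221 ± 8.62 and 111 ± 10.4 at 1 h and 94.9 ± 8.94 and 184 ± 5.91 at 8 h, pH 4.5 given first. AT3G07470, of the DUF538 family, had 551, 534 and 531 at pH 4.5 and 291, 344 and 343 at pH 6 at 1 h. The 8 h arrays read 223, 259.99 and 231 at pH 4.5 and 398, 421 and 379 at pH 6. PRA1.B4 (AT2G38360), a prenylated RAB acceptor of membrane traffic, had log2 ratios of -0.73 and 0.65, AT3G19680 of -0.96 and 1.06, and AT5G06930 of -0.66 and 0.67.

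**Figure D3:**
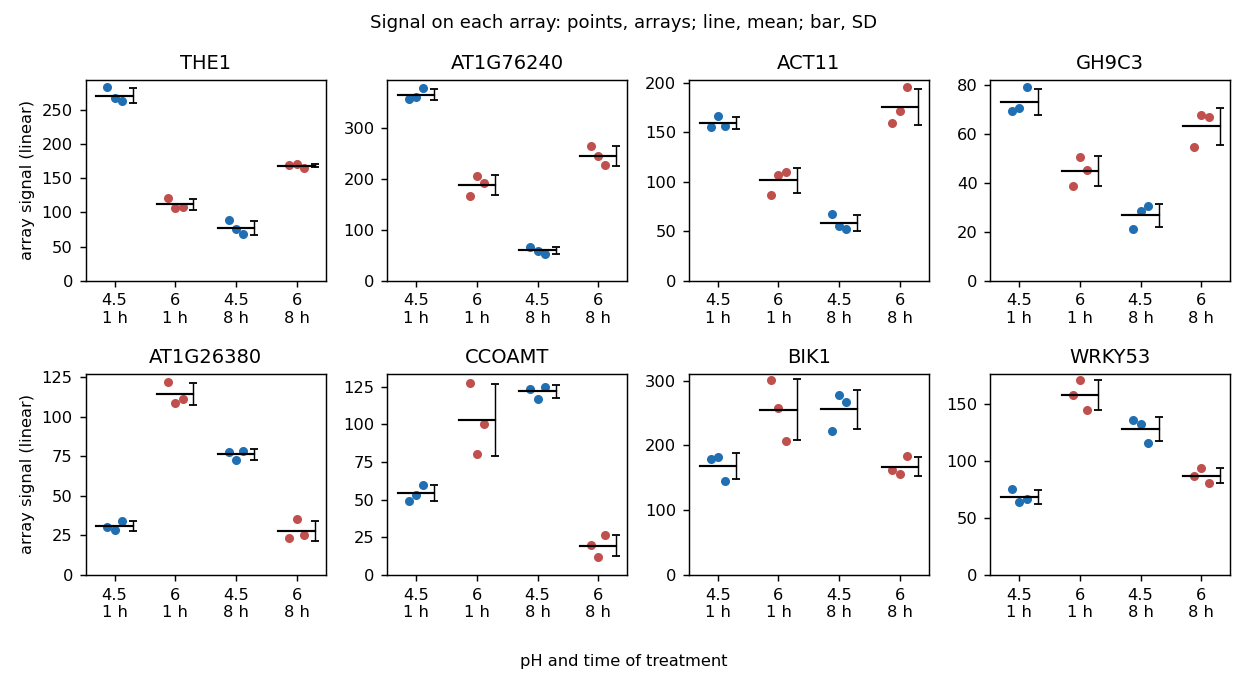
Array signal on a linear axis from 0 for 8 members in the 4 groups, with a point per array (blue pH 4.5, red pH 6), a line for the mean and a bar for the SD (n = 3). In THE1, AT1G76240, ACT11 and GH9C3 pH 4.5 is the higher at 1 h and the lower at 8 h, and in AT1G26380, CCOAMT, BIK1 and WRKY53 the reverse.

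The rule fixes the difference between the pH effects but leaves free which pH carried the change with time. Values of 8 h minus 1 h within each pH were taken from limma's fit of log2(signal + 3.92) and are given without a test, since their difference was fixed by the rule. In the set higher at pH 4.5 first, 45 of the 46 probe sets that passed the filter on low signals were lower at 8 h than at 1 h at pH 4.5, with a median of -1.33, and 43 were higher at 8 h at pH 6, with a median of 0.44. The change at pH 4.5 was the larger in 45 of 46. In the other set, 75 of 76 were higher at 8 h at pH 4.5 (median 0.90) and 75 of 76 were lower at 8 h at pH 6 (median -0.81), and the change at pH 4.5 was the larger in 42. AT4G08850, with -0.05 at pH 4.5 and -1.13 at pH 6, was the probe set of this set that was not higher at 8 h at pH 4.5.

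**Figure D4:**
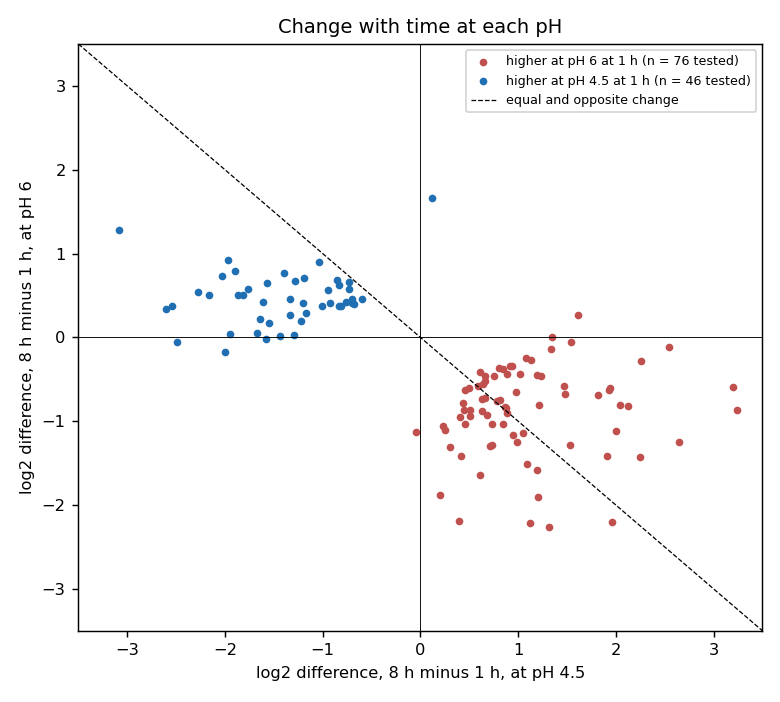
Log2 difference of 8 h minus 1 h at pH 4.5 (horizontal) and at pH 6 (vertical) for the 122 members tested. The dashed line marks equal and opposite changes; 45 of the 46 blue points, higher at pH 4.5 first, lie on the side where pH 4.5 changed more, and the 76 red points fall on both sides.

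Over all 15922 probe sets that passed the filter on low signals, limma called the pH difference in 10.7% at 1 h (5.21% higher and 5.49% lower at pH 6) and in 27.6% at 8 h (14.5% higher and 13.2% lower). It called the difference between the pH effects in 15.5% (7.22% higher and 8.25% lower). The rule used these contrasts, so no count of calls by them is given for the members as a set. Where single members fall in the gene lists below, this is said beside the count.

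The average of the 8 h minus 1 h differences over both pH values is independent of the 2 pH differences in this balanced design, and it was tested with limma over all 15922 probe sets that passed the filter (adjusted p at most 0.05, Benjamini-Hochberg). Over all of them 25.4% were called, 12.6% higher and 12.7% lower at 8 h. In the set higher at pH 4.5 first, 30 of 46 (65.2%) fell on average and 1 rose, with a median log2 difference of -0.49 against 0.01 over all probe sets. The value was below 0 in 45 of the 46, which restates that the change at pH 4.5 was the larger in these. In the set higher at pH 6 first, 25 of 76 (32.9%) rose and 13 (17.1%) fell, with a median of 0.03. The rule also asked that arrays do not overlap, and the part of a low spread between arrays in these shares was not tested. Probe sets that met the same demands with the same sign at both times give a comparison: of 289 tested that were higher at pH 4.5 at both times, 129 (44.6%) fell and 41 rose on average (median -0.22), and of 189 higher at pH 6 at both times, 44 fell and 40 rose (median 0.03). The differences between these sets and the reversing sets were not tested.

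**Figure D5:**
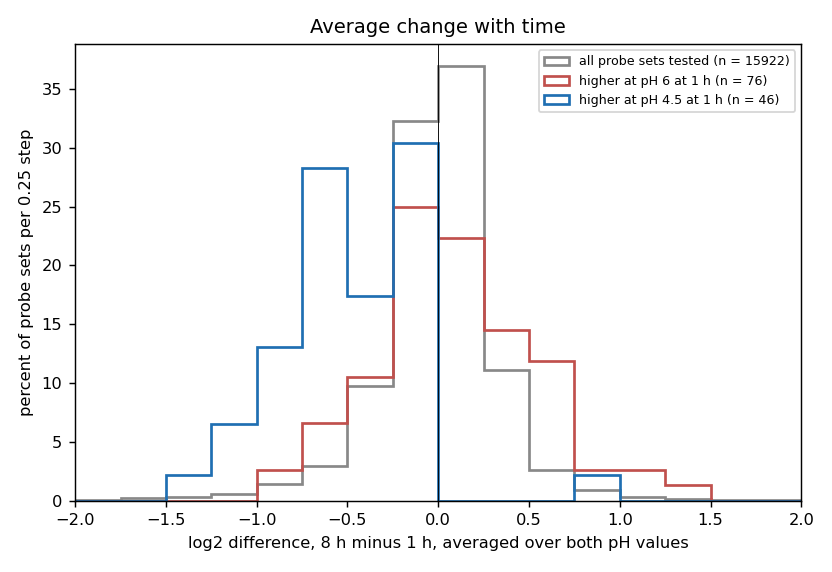
Percent of probe sets per step of 0.25 in the log2 difference of 8 h minus 1 h averaged over both pH values, for all 15922 probe sets tested (grey), the 76 higher at pH 6 first (red) and the 46 tested that were higher at pH 4.5 first (blue). Blue lies mostly below 0, with a median of -0.49, while the red and grey medians are 0.03 and 0.01.

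Among named genes of the set higher at pH 4.5 first, 15 of 19 fell on average and 0 rose, where 12.5% and 11.5% did so over all probe sets that name 1 gene. AT3G05150 had the largest fall, -1.27 ± 0.09 (SE, adjusted p = 2.49e-09), and AT1G76240 followed with -1.08 ± 0.08 (adjusted p = 3.73e-09). The dehydrin gene AT4G38410 fell by 0.87 and the DUF241 genes AT4G35200, AT2G17070 and AT2G17080 had -0.81, -0.65 and -0.54. THE1 stood at -0.60 ± 0.08 (adjusted p = 5.96e-06), GH9C3 at -0.44 ± 0.11 (adjusted p = 0.00463) and ACT11 at -0.32 ± 0.09 (adjusted p = 0.0103). CDI had -0.24 ± 0.07 (adjusted p = 0.0203), a call that ended without replicate 2 of pH 6 at 1 h (adjusted p = 0.0569) or of pH 4.5 at 8 h (adjusted p = 0.0635). The 4 genes that did not pass were AT1G09400 (-0.46), PRA1.B4 (-0.04), AT3G02120 (-0.14) and AT2G34300 (-0.14).

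Of the 35 named genes that were higher at pH 6 first, 8 rose and 6 fell on average, beside the same 11.5% and 12.5%. AT1G19960 (0.67 ± 0.16, adjusted p = 0.00751), AT2G28270 (0.62 ± 0.10, adjusted p = 8.48e-05) and the peroxidase gene AT1G44970 (0.60 ± 0.08, adjusted p = 6.84e-06) had the largest rises. AT4G08850 (-0.59 ± 0.07, adjusted p = 1.97e-06), CCOAMT (-0.55 ± 0.13, adjusted p = 0.00506) and AT4G19370 (-0.50 ± 0.10, adjusted p = 0.000676) had the largest falls. Both berberine-bridge genes fell, AT1G26420 by 0.48 (adjusted p = 0.0315) and AT1G26380 by 0.35 (adjusted p = 0.0135). The call of AT1G26420 was lost under quantile normalization and without any of 8 single arrays, with adjusted p between 0.0503 and 0.0796. BIK1 and WRKY53 had averages of 0.00 ± 0.09 and 0.02 ± 0.08, near 0: the differences between the pH values reversed while the average over both stayed within its error of 0.

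Some genes of photosynthesis and of the clock also changed with time on average. Of 11 listed genes of green tissue, 3 had a named probe set, RCA, LHCB4.1 and PSAN, and all 3 fell on average (median -0.87), where 12.5% of probe sets that name 1 gene fell and 11.5% rose. Of 5 tested genes of a wider list of light and photosynthesis genes, which shares LHCB4.1 with these, 3 fell, and HCF101 (-0.03) and LHCB4.3 (-0.30) did not pass. The summed signal of RCA, LHCB4.1 and PSAN was 116 to 181 at pH 4.5 and 156 to 185 at pH 6 after 1 h, and 59.7 to 75.7 and 67.9 to 97.6 after 8 h. None had a mean of 0 in any group, but PSAN was low at pH 6 after 8 h. Its mean there was 6.11 ± 7.76 (SD), under the low-signal level and smaller than its SD. GI (AT1G22770), a clock gene, fell by 1.25 on average and COR27 (AT5G42900), a cold- and clock-linked gene, rose by 1.27, while CCL, the third clock gene tested, did not pass (-0.20, adjusted p = 0.316). The part of green tissue or of the hour of day in the average changes of the members was not tested. The root hair genes EXPA7 and EXPA18 were the 2 of 6 listed epidermis markers with a probe set. Their summed signal was 179 to 216 at pH 4.5 and 190 to 268 at pH 6 at 1 h. At 8 h it was 127 to 180 at pH 4.5 and 229 to 261 at pH 6, without overlap. Single probe sets did not overlap at 8 h in 32.7% of all. The 8 h means at pH 4.5 and pH 6 were 67.8 and 134.9 in EXPA7, and 94.6 and 112.3 in EXPA18. Of the pair, EXPA7 was higher at pH 6 at 8 h (0.96, adjusted p = 8.63e-05) and EXPA18 did not pass (0.26, adjusted p = 0.194). Over all probe sets that name 1 gene, 13.7% were higher. Beside the growth-related members that were higher at pH 6 after 8 h, the part of these root hair genes was not tested either.

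The members were chosen by the pH differences at 1 h and at 8 h on these arrays. As a description, the rule was also applied without 1 replicate number in every group. The differences were then read in the 4 arrays left out. For the set higher at pH 6 first, 106, 106 and 114 probe sets met the rule without replicates 1, 2 and 3, and both signs recurred in the left-out arrays in 83.02%, 80.2% and 71.9% of them. Their median difference at 1 h shrank from 0.69 to 0.59, from 0.67 to 0.51 and from 0.70 to 0.38, while at 8 h it went from -0.85 to -0.75, from -1.03 to -0.95 and from -0.84 to -1.01. For the set higher at pH 4.5 first, 73, 66 and 65 met the rule and 87.7%, 90.9% and 87.7% kept both signs. In these the left-out medians were -0.78, -0.65 and -0.64 at 1 h and 0.68, 0.69 and 0.74 at 8 h. Of these medians, that of the first set at 1 h in replicate 3 shrank the most, from 0.70 to 0.38. The probe sets chosen in this way are not the same as the members described above. How often signs were kept in other probe sets was not computed. The arrays left out also share the difference in array medians at 1 h, and replicates may be only technical. They are therefore not independent of the choice, and nothing is read from these shares in support of the reversal.

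A further 4 families were looked at because members belong to them, a choice made after the values were seen. Of 17 loci of the malectin-like receptor kinase family, 12 had a named probe set and 7 passed the filter. By limma, 1 was higher at pH 6 and 2 were lower at 1 h (background over probe sets that name 1 gene 5.15% and 4.88%), and 1 was higher and 3 were lower at 8 h (13.7% and 12.2%). The difference between the times was called higher in 1 and lower in 2 (6.54% and 7.8%). The members THE1, AT2G23200 and AT5G39020, for which the rule used these differences, are in the counts. For the difference between the times they are the whole count, which the choice of members fixed. The counts at 1 h and at 8 h hold members too, so nothing is read from any of these counts beside the background. FER (AT3G51550), the FERONIA receptor, had means of 784 and 616 at 1 h and 471 and 532 at 8 h, pH 4.5 first, and neither pH difference passed (-0.35 and 0.17, adjusted p = 0.0972 and 0.376). AT2G39360, which is no member, was lower at pH 6 at both times (-0.87 and -0.90, adjusted p = 8.76e-06 and 2.00e-06).

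Of 12 loci of the DUF241 family, 11 had a named probe set and 5 passed the filter, and 4 of those 5 are members. The fifth, AT4G35720, had means of 26.9, 24.9, 19.0 and 27.4 in the order pH 4.5 and pH 6 at 1 h, then at 8 h. Its log2 differences of -0.10 and 0.44 did not pass (adjusted p = 0.809 and 0.0977). AT4G35210, next to AT4G35200 in name and too low for the test, had 13.1 and 3.13 at 1 h and 0.388 and 3.41 at 8 h.

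Of 14 loci of immune receptor signalling, 5 had a named probe set, 4 passed the filter and 3 are members (BIK1, WRKY53 and AT4G08850). The other was WRKY22 (AT4G01250), a transcription factor of early defence, which was higher at pH 6 at both times, by 0.78 at 1 h and 0.35 at 8 h (adjusted p = 0.000280 and 0.0487). Of 8 actin loci, 2 had a named probe set, of which ACT11 passed the filter and ACT12 did not.

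Other gene lists held few members, but many of these lists matched few or no genes. The lists for protein kinases and class III peroxidases found 0 probe sets, although BIK1, THE1 and AT1G44970 are members. The lists for transporters and for oxidoreductases held 0 of the members described above with such roles. Counts of members in the lists are therefore low estimates. Of 37 lists, 21 had a named probe set and 3 held a member: CCL among the clock genes, WRKY53 among the WRKY factors and GH9C3 among wall enzymes. Of 3 clock genes with a probe set (of 21 listed), the member CCL was higher by the rule and COR27 lower at pH 6 at 1 h (-1.10, adjusted p = 0.000403), and GI was lower at 8 h (-0.28, adjusted p = 0.0338). Of 5 WRKY genes tested, 2 were higher and 1 lower at 1 h and 1 was higher and 3 lower at 8 h, with the member WRKY53 among those higher at 1 h and lower at 8 h by the rule. Over all probe sets that name 1 gene, 5.15% were higher and 4.88% lower at 1 h, and 13.7% and 12.2% at 8 h. WRKY6 (AT1G62300) was lower at pH 6 at both times (-0.65 and -1.34, adjusted p = 0.000519 and 2.32e-08). Of 12 wall enzymes tested, 1 was higher and 2 lower at 1 h, and 3 were higher and 1 lower at 8 h, beside the same background shares. The member GH9C3 is counted as lower at 1 h and higher at 8 h by the rule. GH9B13 (AT4G02290), of the same glycosyl hydrolase family as GH9C3, had no early difference past the test (-0.03, adjusted p = 0.930) and was higher at pH 6 at 8 h (1.07, adjusted p = 3.70e-05). GH9B7 of this family was also higher at 8 h (0.63, adjusted p = 0.000178). At that time GH9C1 (-0.09), GH9C2 (0.11), GH9A3 (0.29) and GH9B8 (0.33) did not pass. Of 2 iron genes tested, AT3G13610, an oxygenase gene of coumarin synthesis, was lower at pH 6 at 8 h (-0.71, adjusted p = 7.18e-05). No gene of the nitrate or of the proton transport and acid tolerance list had a named probe set here.

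The size limit of 0.5 did not fall in a gap. Just inside it were AT4G09110 (0.71 and -0.50) and AT5G59530 (0.50 and -1.02) in the first direction, and a probe set with no named gene (-0.51 and 0.56) and AT2G34300 (-0.51 and 0.60) in the second. Just outside were SAL2 (0.496 and -1.12) and AT2G37130 (0.494 and -0.81), then an unnamed probe set (-0.80 and 0.49989) and AT1G04430 (-0.499 and 0.68). In all, 291 and 249 further probe sets met every other demand with a smaller reversal.

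The probe sets with no named gene reversed over a range of 0.50 to 2.87 at 1 h and -3.40 to -0.55 at 8 h in the set higher at pH 6 first. Of these and their counterparts in the other set, 2 are described here, a choice made after their values were seen. The unnamed probe set with the largest difference at 8 h in the set higher at pH 4.5 first had means of 122 and 45.5 at 1 h and 10.9 and 116 at 8 h, pH 4.5 given before pH 6. Another had the largest early difference of the set higher at pH 6 first, 2.19 against 41.4, and 34.4 against 15.3 at 8 h. Of the 27 unnamed probe sets that were higher at pH 4.5 first, 26 passed the filter, and 14 fell and 1 rose on average. Of the 41 in the other set, 17 rose and 7 fell. Over all probe sets tested 12.6% rose and 12.7% fell. In 14 of all 123 members at least 1 group mean lay under the low-signal level of 10.4, where the constant reduces the log2 ratio.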

How the data were processed

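RNA from roots was hybridised to 12 Affymetrix ATH1 arrays, 3 in each of 4 groups. The values deposited by the authors are linear array intensities (signals), for which the submitters' processing notes name MAS5 and GCOS. As the deposited intensities show, each array was scaled to a trimmed mean of 100. The build is not given in the sources used here. The arrays give no counts, so their number limits the precision.

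Of 22810 probe sets, 64 controls were left out. Of the others, 13513 name a single gene in the platform's annotation, 503 several and 8730 none, and 13436 were matched to RefSeq (TAIR10.1). Group means, the reversal rule and the lists were computed in Python 3.11.15 with numpy 2.4.6 and pandas 2.3.3. Signals were tested as log2(signal + 3.92), where the constant is 10% of the median signal, with limma 3.58.1 in R 4.3.3 (lmFit, eBayes with an intensity trend and a robust prior, Benjamini-Hochberg adjustment, two-sided, threshold 0.05). Probe sets under the 30th percentile of mean log2 signal, a level equal to a signal of 10.4, did not enter, and 15922 were tested with 8 residual degrees of freedom. On simulated data for the average time effect over 15922 probe sets, 98% of changes of log2 size 1 and 72% of size 0.5 were recovered, with 11 false among 181 calls. These data had independent noise around 1 mean per probe set and 100 changed probe sets of each size. They held no pH effect and no shifts between arrays, so the figures may not carry over to the real arrays.

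The members, the gene lists and the tests were chosen with earlier results of these data known. The rule for named genes took, in each direction, the 12 single-gene members with the largest smaller difference, the 2 nearest the threshold on each side, members of lists that hold at least 2, and up to 4 with the largest average time effect. BIK1, WRKY53, AT5G39020 and the other members outside that rule were named after their values were seen. Alternatives were other constants, sizes and filters, scaling by the array median or quantiles, other eBayes settings, a replicate block and leaving out arrays. Promoter sequences were not analysed here.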

Additional observations from a re-analysis of the deposited data

Results flagged for a closer look

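Both directions of reversal are effects of opposite sign under the same pH contrast at the 2 times. In 76 probe sets every pH 6 array was above every pH 4.5 array at 1 h and below at 8 h, and in 47 every array lay the other way. The rule asked for this, so the counts describe the choice, and no test of the difference between the 2 times is used in support of it.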

How the results depend on the processing

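The number of members depended on the rule's settings. With a constant of 16 in place of 4 there were 48 and 30 (higher at pH 6 first and at pH 4.5 first), with a size of 0.3 there were 188 and 162, and with a size of 1 there were 7 and 6. Leaving out 1 array, or 1 replicate number in every group, gave 75 to 114 and 47 to 73 members, the highest of the second range without replicate 1 of every group. Scaling each array by its median gave 52 and 65, and quantile normalization 62 and 57. No replicate pairing is stated, and deviations of same-numbered arrays correlated between -0.0876 and 0.166 over 18 pairs, with 5 above 0.1. The 36 pairs of different number lay between -0.193 and 0.208, with 2 above 0.1. The median correlation was 0.042 for same-numbered pairs and -0.031 for the others. With the replicate number as a block in the fit, 69 members were called by the average time effect, as without it. Of these, 30 were lower in the set higher at pH 4.5 first. Over all probe sets tested, that fit called 13.1% lower and 13.2% higher. Another alternative, chosen after seeing the data, left out members that had a group mean under the low-signal level. These were 9 members higher at pH 6 first and 5 higher at pH 4.5 first. Of the members kept, 63 were called, where 25.4% of all probe sets tested were called. With 1 array left out, 62 to 70 members were called, 28 to 32 of them lower in the set higher at pH 4.5 first. Over all probe sets tested, these fits called 11.0% to 12.6% lower and 10.3% to 12.5% higher. Of 29 named genes called, 24 passed under all 21 other settings run; AT1G26420 and AT2G45040 failed in 9, AT5G43910 in 8, AT1G49000 in 4 and CDI in 2. The sign of the average changed with 1 array left out in 8 genes that were not called. Their ranges were -0.093 to 0.022 in PRA1.B4, -0.068 to 0.065 in BIK1, -0.016 to 0.10 in AT4G02090, -0.048 to 0.099 in AT5G42830, -0.48 to 0.060 in rpoB, -0.014 to 0.050 in WRKY53, -0.12 to 0.060 in AT5G39020 and -0.055 to 0.12 in AT5G59530. The causes were not tested. Low signals limit the rest: at signals under the level of 10.4 the constant reduces the log2 ratio.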
